A study of Sus scrofa with 6 samples.

Results

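Chondrocytes isolated from porcine growth plate cartilage were compared at day 20 of culture against day 10. Each day was measured on 1 array, so the comparison rests on 2 of the 6 arrays of the series. The other arrays held articular chondrocyte cultures at day 20 and at day 10 and the native tissue of each cartilage, 1 array each. All cultures were primary chondrocytes released with collagenase, kept at 37 °C in a gas phase of 5% oxygen and 5% carbon dioxide, and fed with DMEM/Ham's F12 containing FBS and antibiotics, without other additions. No allele, drug or differentiating agent is named for any group, although the labels call both days days of differentiation. The age of the pigs, and whether the days came from the same animals or from pools, are not given in the sources used here. Starting from 100 ng of RNA, cRNA was labelled with biotin in the Two-Cycle procedure, and each probe set gave a linear signal intensity in arbitrary units. Signals under 36.1, the 40th percentile of all signals, were raised to that floor before ratios were taken. A fold whose lower array lay at the floor is a lower bound and is written "at least N-fold higher" or "at least N-fold lower", with the measured signals beside it. Because neither day was replicated, differences are described by size with no p-value, as 2-fold, 4-fold or 8-fold.

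The growth plate is the cartilage that lengthens long bones. Its chondrocytes proliferate in columns and then enlarge, secrete type X collagen and mineralise their matrix, and an Indian hedgehog (IHH) and parathyroid hormone-related protein (PTHLH) loop is known to set the pace at which cells leave proliferation. In monolayer culture chondrocytes are known to divide and to take on fibroblast-like matrix genes. Growth plate cartilage has few vessels, and its cells rely heavily on glycolysis and on the hypoxia-inducible factor pathway.

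Day 20 and day 10 differed by less than 2-fold for 4832 of 5598 genes compared (86.3%). At the 2-fold rule, 372 genes (6.65%) were higher at day 20 than at day 10 and 394 (7.04%) were lower. At 4-fold, 84 genes (1.5%) were higher and 47 (0.84%) lower, and at 8-fold 28 (0.5%) were higher and 3 (0.0536%) lower. The median log2 ratio of day 20 over day 10 was -0.02 and the SD over genes was 0.75. Of the genes past 4-fold, 20 of the higher and 7 of the lower ones had 1 array at the floor. Genes that passed 4-fold were therefore more often higher than lower, while the counts at 2-fold were nearly even. Dividing each array by its median turned the 2-fold counts to 437 higher and 324 lower.

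**Figure D1:**
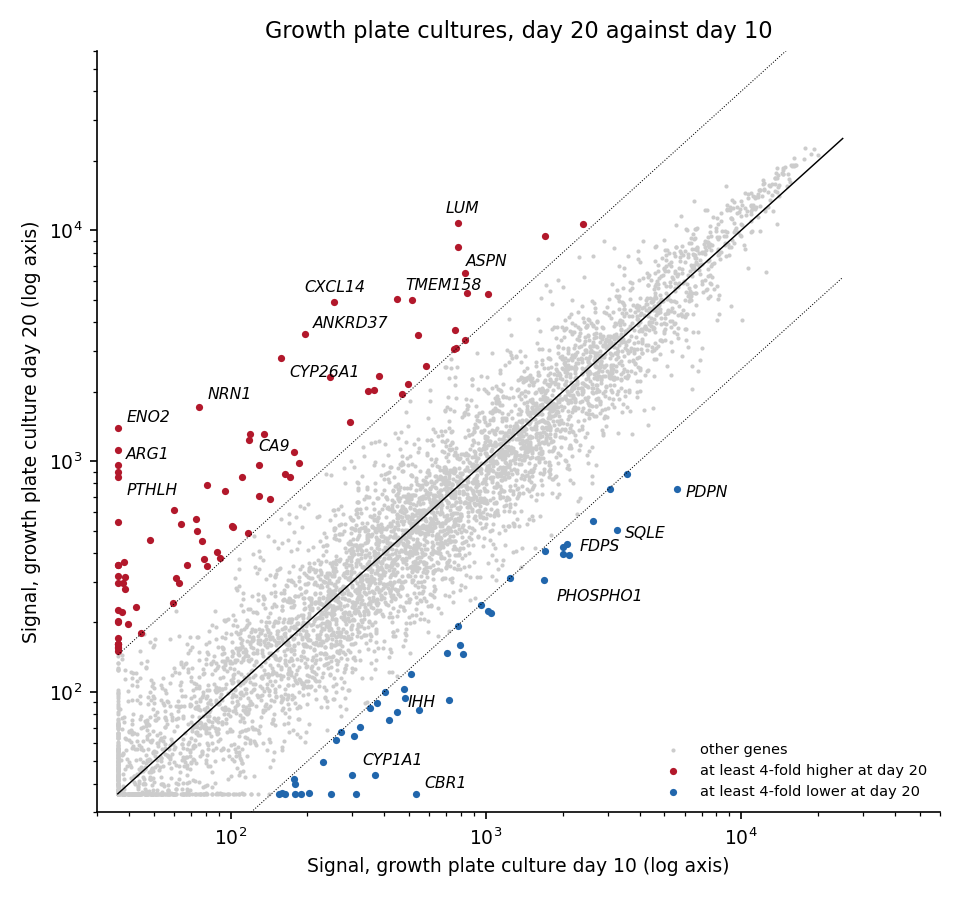
Signal of each of 5598 genes in the growth plate culture at day 20 (vertical, log axis) against day 10 (horizontal, log axis), 1 array each, with signals under the floor of 36.1 drawn at it. The solid line marks equal signals and the dotted lines 4-fold; 84 genes lie above the upper dotted line (red) and 47 below the lower one (blue).

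The median signal was 67.5 at day 20 and 71.5 at day 10, and the highest signal 23409 at day 20 and 20084 at day 10. The 27 hybridisation control probe sets, which report spiked transcripts, were 0.07 to 0.59 higher at day 20 on the log2 scale, with a median of 0.28. The ratio of 3′ to 5′ probe set signals, a measure of RNA and labelling quality, was 5.55 at day 20 and 3.27 at day 10 for ACTB, and 0.995 at day 20 and 1.49 at day 10 for GAPDH. A second GAPDH set had 5′ signals of 12390 at day 20 and 1701 at day 10. The part of these gaps in the gene differences was not tested. Among 1232 genes with a second probe set above the floor on both days, the log2 ratios of both probe sets differed by a median of 0.37, and 89.5% were within 1. For genes past 4-fold, the second probe set had the same sign in 8 of 8 higher and 5 of 5 lower genes that had one above the floor. Some genes given below as past 2-fold had another probe set above the floor that was within 2-fold. Among them were FTL, GPAM, LPL, MCM5, NCAM1, PLOD1, VEGFA and VLDLR.

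The labelled cell type was checked against chondrocyte markers. All 6 markers compared, of 12 listed and 6 named on the array, were above the floor on both days and within 2-fold of each other. HAPLN1, the link protein of the aggrecan network, had a signal of 15365 at day 20 and 13922 at day 10. Type II collagen, COL2A1, had 1603 at day 20 and 1361 at day 10, and the cartilage transcription factor SOX9 had 118 at day 20 and 125 at day 10. COMP, a matrix glycoprotein, had 5326 at day 20 and 5098 at day 10. Aggrecan, ACAN, differed most of the list, with 6596 at day 20 and 12466 at day 10, or 1.89-fold lower, and quantile normalization alone among the scalings tried put it past 2-fold. Both cultures thus carried chondrocyte markers.

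Markers of blood and vessel cells were mostly at the floor. All 9 lymphocyte markers on the array were at the floor on both days, with a summed signal of 78.2 at day 20 and 85.1 at day 10. Of 10 macrophage and monocyte markers, 7 were at the floor on both days, CD14, C1QA, CD163 and TYROBP were at the floor at day 20, and the list summed to 302 at day 20 and 161 at day 10. CD86, a costimulatory receptor of that list, was above the floor only at day 20, with 155 at day 20 and 35.7 at day 10, and at least 4.30-fold higher. Of 10 endothelial markers, 6 were at the floor on both days, among them CDH5, VWF, KDR and TEK, and the sum was 674 at day 20 and 633 at day 10; CLDN5 was at least 2.61-fold higher at day 20. Of 4 erythroid markers only HBB was above the floor, at 289 at day 20 and 426 at day 10. Among 5 osteoclast markers, CTSK alone was above the floor, at 7793 at day 20 and 6548 at day 10, a gene that chondrocytes and fibroblasts also express. Of 10 skeletal muscle markers 7 were at the floor on both days, and DES had 326 at day 20 and 127 at day 10. The 6 adipocyte markers on the array summed to 1003 at day 20 and 524 at day 10, with PPARG and FABP4 at the floor on both days and LPL, a lipoprotein lipase, 2.18-fold higher at day 20.

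Markers of connective tissue cells did differ between the days. Of 7 fibroblast and perichondrium markers compared, of 8 on the array, 4 were at least 2-fold higher at day 20 and none lower, with a median log2 ratio of 1.53. Their summed signal was 13743 at day 20 and 4908 at day 10, and native growth plate cartilage summed to 13606. MFAP5, an elastic fibre glycoprotein, had 354 at day 20 and 27.0 at day 10, at least 9.81-fold higher, and FAP, a surface protease of activated fibroblasts, had 1420 at day 20 and 493 at day 10. CD34 and DPT were within 2-fold. Of 6 smooth muscle and pericyte markers compared, of 7 on the array, 3 were at least 2-fold higher and none lower, with a median of 0.94 and a summed signal of 23389 at day 20 and 17967 at day 10. PDGFRB, a growth factor receptor of mesenchymal cells, had 941 at day 20 and 305 at day 10, but its second probe set ran the other way, with 59.7 at day 20 and 95.2 at day 10. RGS5, a pericyte marker, was at the floor on both days. In cultures measured in bulk, a different share of cells of a type and a different amount of RNA per cell cannot be told apart.

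The ligands of the hedgehog and parathyroid hormone loop, IHH and PTHLH, were far apart between the days, and the receptor PTH1R was not. The ligand IHH had a signal of 82.1 at day 20 and 448 at day 10, or 5.46-fold lower, and its native level was 118. PTHLH, the ligand it is known to induce, had 856 at day 20 and 28.7 at day 10, and was at least 23.7-fold higher. At day 20 IHH lay near its native level, and PTHLH lay above its native signal of 74.5. The shared receptor of parathyroid hormone and PTHLH, PTH1R, had 3352 at day 20 and 4864 at day 10, within 2-fold. FOXA2, a forkhead factor that in mice drives chondrocyte hypertrophy, had 437 at day 20 and 2079 at day 10, or 4.76-fold lower. Of 7 growth plate signalling genes compared, of 10 on the array, 2 were at least 2-fold higher and 1 lower, with a median log2 ratio of 0.08. The other higher one was the growth factor FGF2, with 88.5 at day 20 and 2.38 at day 10, at least 2.45-fold. FGFR1, its receptor, was 1.74-fold lower and the ERK phosphatase DUSP6 1.74-fold higher, while the natriuretic peptide receptor NPR2 had 672 at day 20 and 637 at day 10.

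**Figure D2:**
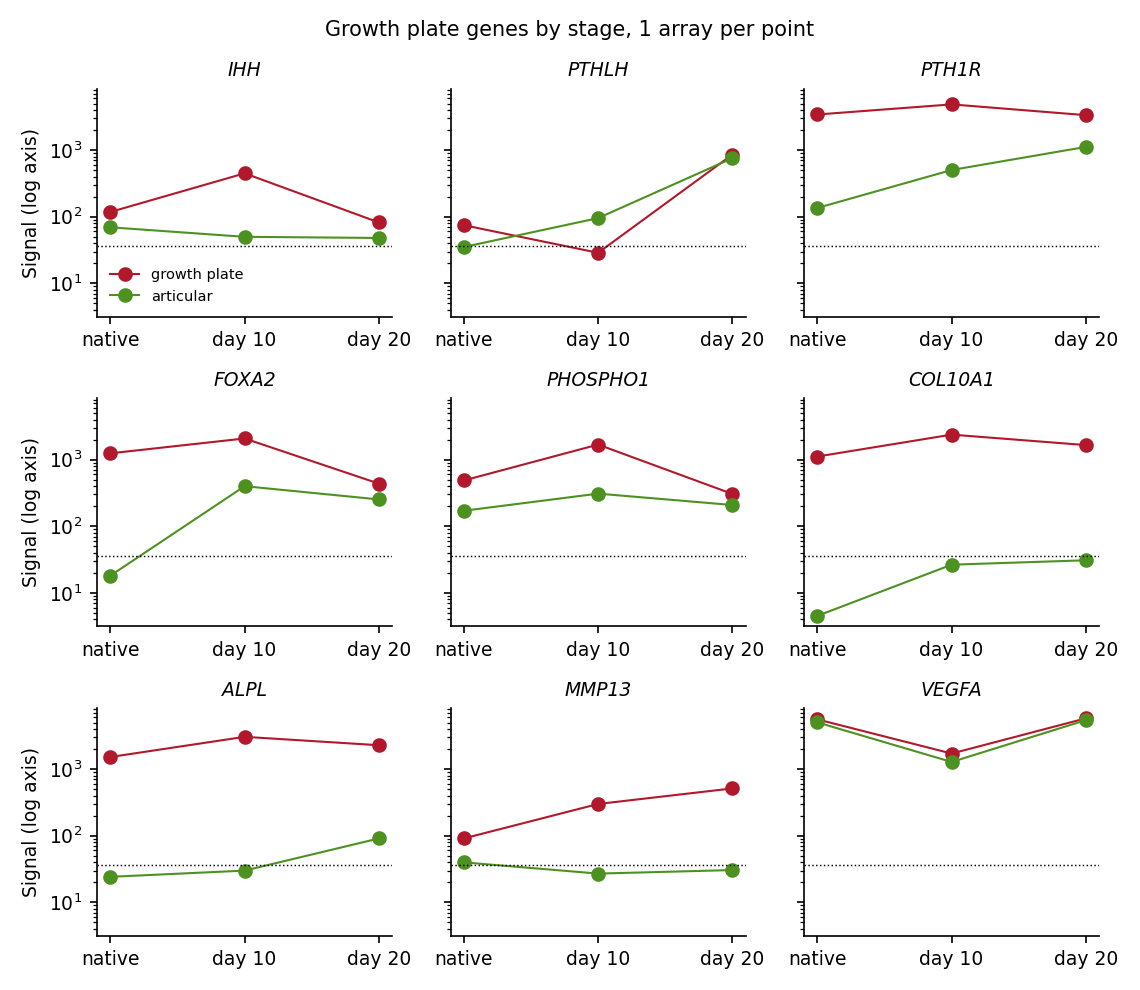
Signal (log axis) of 9 growth plate genes in native tissue, at day 10 and at day 20 of culture, for growth plate (red) and articular (green) samples, 1 array per point, with the floor of 36.1 dotted. In the growth plate series IHH, FOXA2 and PHOSPHO1 peak at day 10, PTHLH is under the floor at day 10 and at 856 at day 20, and COL10A1, ALPL and PTH1R stay within 2-fold between the culture days.

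Most genes of hypertrophic and mineralising cartilage were alike on both days. Of 12 compared, of 13 on the array, 1 was at least 2-fold higher and 2 were at least 2-fold lower, 9 were within 2-fold, and the median log2 ratio was -0.33. The higher gene made 8.33% of the list and the lower ones 16.7%, against 6.65% and 7.04% over all genes. The lower ones were IHH and PHOSPHO1, a phosphatase that frees phosphate inside matrix vesicles, with 306 at day 20 and 1684 at day 10, or 5.51-fold lower. Type X collagen, COL10A1, had 1655 at day 20 and 2375 at day 10, and alkaline phosphatase, ALPL, had 2287 at day 20 and 3057 at day 10. MMP13, the collagenase of the last hypertrophic cells, had 513 at day 20 and 299.7 at day 10. The mineral-binding proteins IBSP and SPP1 had little difference, IBSP with 15675 at day 20 and 14034 at day 10 and SPP1 with 13958 at day 20 and 11654 at day 10. DMP1 and BGLAP, which mark mature bone cells, were at or near the floor. The higher gene was VEGFA, described with the hypoxia genes. Of 7 osteoblast genes compared, of 9 on the array, COL1A2 was higher and DLX5, a homeobox factor of bone and hypertrophic cartilage, lower, with 521 at day 20 and 1164 at day 10, and the median was 0.

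The hyaline matrix genes were all within 2-fold, with a median log2 ratio of 0.14 over 5 compared, of 6 on the array. Of 6 cartilage transcription factors compared, of 7 on the array, FOXA2 was lower and none higher, with a median of 0.19. The ETS factor ERG had 388 at day 20 and 258 at day 10, within 2-fold.

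Among fibrous matrix genes, 8 of 16 were higher at day 20 and the rest were within 2-fold. These 16 fibroblastic matrix genes were all those of the list on the array, and the median log2 ratio was 1.15 against -0.02 for all genes. VCAN, the large proteoglycan of loose connective tissue, had 1312 at day 20 and 136 at day 10, or 9.67-fold higher. THBS2, a matricellular protein, had 4979 at day 20 and 515 at day 10, also 9.67-fold. COL1A2, a chain of type I collagen, had 2343 at day 20 and 381 at day 10, or 6.15-fold higher, and its native signal was 432. Type III collagen, COL3A1, had 406 at day 20 and 129 at day 10, or 3.15-fold higher. The periodontal and fibroblast matrix protein POSTN had 161 at day 20 and 12.9 at day 10, at least 4.47-fold. Other members were close on both days, with FN1, fibronectin, at 19082 at day 20 and 16133 at day 10 and SPARC at 17700.0 at day 20 and 13645 at day 10. Tenascin, TNC, and thrombospondin 1, THBS1, were also within 2-fold.

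Small leucine-rich proteoglycans, which bind collagen fibrils, gave the highest median of the 33 pathway lists, 2.47 over 5 genes compared, all on the array. LUM had 10749 at day 20 and 780 at day 10, or 13.8-fold higher. ASPN, which binds TGF-beta and collagen, had 8482 at day 20 and 777 at day 10, or 10.9-fold higher. DCN had 9444 at day 20 and 1703 at day 10, or 5.54-fold higher. BGN was 1.98-fold higher and PRELP, at 12445 at day 20 and 10353 at day 10, 1.20-fold higher. The 5 members thus ran from nearly equal on both days to 13.8-fold apart. With the mean of all probe sets of a gene, the list median was 1.24.

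Genes that cut or fold matrix proteins differed less. Of 14 matrix proteases and inhibitors compared, of 17 on the array, 4 (28.6%) were at least 2-fold higher and 1 (7.14%) was lower. Their median was 0.47, and over all genes 6.65% were higher and 7.04% lower. The gelatinase MMP2 had 4120 at day 20 and 1606 at day 10, the serine protease HTRA1 4964 at day 20 and 2179 at day 10, and the inhibitor TIMP1 8172 at day 20 and 3928 at day 10. The interstitial collagenase MMP1 was at least 3.44-fold higher, with 124 at day 20 and 29.9 at day 10. The lower one was ADAMTS1, a protease of aggrecan and versican, with 315 at day 20 and 944 at day 10. Of 22 secretory pathway and collagen folding genes, of 23 on the array, the lysyl hydroxylase PLOD1 and the prolyl isomerase FKBP10 were 2.17-fold and 2.10-fold higher and none was lower, with a median of 0.10. The higher ones made 9.09% of the list, against 6.65% over all genes.

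Of 19 contractile cytoskeleton genes compared, all those on the array, 3 (15.8%, against 6.65% over all genes) were at least 2-fold higher and none lower, with a median of 0.30. They were PDLIM1, an actin-bundle adaptor, with 2566 at day 20 and 699 at day 10, calponin 1, CNN1, with 561 at day 20 and 157 at day 10, and the tropomyosin TPM2 with 7752 at day 20 and 3598 at day 10. Of the other 3 probe sets of TPM2, a pair was also at least 2-fold higher at day 20 (log2 ratios 1.18 and 1.51) and 1 ran the other way (-0.34). Smooth muscle actin, ACTA2, had 17679 at day 20 and 14481 at day 10. Of 9 YAP, TAZ and SRF target genes, all those on the array, only ANKRD1, a stretch-induced repeat protein, was past 2-fold. It had 172 at day 20 and 69.1 at day 10 and made 11.1% of the list, and the list median was 0.35.

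Some genes of glycolysis and of the hypoxia response stood among the largest differences, all of them higher at day 20. The list held 5 of the 84 genes at least 4-fold higher, while 17 of its members were within 2-fold. Of 25 compared, all those on the array, 8 were at least 2-fold higher and none lower, with a median log2 ratio of 0.61. The enolase ENO2 had 1391 at day 20 and 22.0 at day 10, and was at least 38.5-fold higher. ANKRD37, an ankyrin repeat protein induced by hypoxia, had 3549 at day 20 and 195 at day 10, or 18.2-fold higher. The carbonic anhydrase CA9 had 1309 at day 20 and 119 at day 10, or 11-fold higher. SLC2A3, a glucose transporter, had 6548 at day 20 and 831 at day 10, or 7.88-fold higher, and VEGFA, the vascular growth factor, had 5792 at day 20 and 1715 at day 10, or 3.38-fold higher. Another VEGFA probe set had 1048 at day 20 and 830 at day 10, and a further one 453 at day 20 and 129 at day 10. In native growth plate tissue these 5 genes had 299, 1637, 250.3, 6978 and 5588, so that SLC2A3 and VEGFA at day 20 lay close to their native signals and the other 3 lay above theirs. Unlike ENO2, the enzymes GAPDH, LDHA and PFKL of the glycolytic path were within 2-fold between the days. GAPDH had 19189 at day 20 and 15971 at day 10, and LDHA had 19189.9 at day 20 and 15684 at day 10. The phosphofructokinase PFKL was only 1.07-fold lower. Outside that path, the demethylase KDM3A of the same list was only 1.05-fold lower.

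Of 11 angiogenic factors compared, of 12 on the array, 5 were at least 2-fold higher and none lower, with a median of 0.64. With the mean of all probe sets of a gene, 3 were higher and 1 lower. The 5 were VEGFA, FGF2, THBS2, ANGPTL4 and SERPINF1, and both THBS2 and SERPINF1 are known as inhibitors of vessel growth. SERPINF1 had 2018 at day 20 and 345 at day 10, or 5.85-fold higher. ANGPT1, a ligand that stabilises vessels, was 1.90-fold lower.

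Genes of cell division were lower at day 20. Of 18 mitosis genes compared, all those on the array, 13 were at least 2-fold lower and none higher, with a median log2 ratio of -1.16. The anaphase activator CDC20 had 348 at day 20 and 1371 at day 10, or 3.94-fold lower. The kinase PLK1 had 89.1 at day 20 and 336 at day 10, AURKA had 305 at day 20 and 1096 at day 10, and the topoisomerase TOP2A had 692 at day 20 and 2344 at day 10. All 18 were lower at day 20, down to the 1.41-fold gap of cyclin A2, CCNA2.

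The replication genes followed the same direction with 1 exception. Of 13 compared, all those on the array, 9 were at least 2-fold lower and none higher, with a median of -1.23. With the mean of all probe sets of a gene, 5 of the 13 were at least 2-fold lower. The helicase subunit MCM3 had 75.2 at day 20 and 416 at day 10, or 5.53-fold lower, and MCM5 had 160.2 at day 20 and 795 at day 10. A second MCM5 probe set was within 2-fold, with 45.0 at day 20 and 71.3 at day 10. The polymerase clamp PCNA had 409 at day 20 and 1697 at day 10, or 4.15-fold lower. RRM2, a subunit of ribonucleotide reductase, had 754 at day 20 and 3051 at day 10. The exception was thymidylate synthase, TYMS, at 190.5 at day 20 and 172 at day 10. EZH2, the histone methyltransferase subunit, and CLSPN, a replication checkpoint adaptor, stood among the largest differences outside the lists, EZH2 with 146 at day 20 and 816 at day 10 and CLSPN with 36.3 at day 20 and 203 at day 10. Of 10 p53 targets and cell cycle inhibitors compared, of 11 on the array, 3 were at least 2-fold higher and 1 lower, with a median of 0.66. The antiproliferative gene BTG2 had 224 at day 20 and 61.0 at day 10, cyclin G2, CCNG2, had 1828 at day 20 and 604 at day 10, and the inhibitor CDKN1B had 836 at day 20 and 399 at day 10. SESN1, a stress-induced sestrin, was 2.68-fold lower.

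Cholesterol synthesis genes were lower at day 20 in every member compared. Of 10 on the array and compared, 5 were at least 2-fold lower and none higher, with a median of -1.19. Squalene epoxidase, SQLE, had 502 at day 20 and 3264 at day 10, or 6.50-fold lower. FDPS, which makes farnesyl diphosphate, had 390 at day 20 and 2122 at day 10, or 5.44-fold lower. ACAT2, an acetoacetyl-CoA thiolase, had 550.3 at day 20 and 2628 at day 10, and the HMG-CoA synthase HMGCS1 had 588 at day 20 and 2285 at day 10. SC5D, which acts late in the path, was 1.36-fold lower. Of 16 fatty acid synthesis and lipid storage genes, of 19 on the array, 1 was at least 2-fold higher and 3 were lower, with a median of -0.41. Over all genes, 6.65% were higher and 7.04% lower. The acyltransferase GPAM, the elongase ELOVL6 and the fatty acid binding protein FABP3 were 2.70-fold, 2.55-fold and 2.39-fold lower, the desaturase SCD was 1.45-fold higher, and LPL was the higher one.

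Secreted mediators and antigen presentation genes included a higher subset. Of 19 inflammatory mediators compared, of 29 on the array, 7 were at least 2-fold higher and none lower, with a median of 0.02, and with genes above the floor on both days only the median was 1.02 over 13. The prostaglandin E synthase PTGES had 5357 at day 20 and 844 at day 10, or 6.35-fold higher, and PTGS2, which makes its substrate, had 1217 at day 20 and 382 at day 10. The chemokine CCL2 had 375 at day 20 and 78.8 at day 10, or 4.76-fold higher, below its native signal of 1750.3. VCAM1, a leukocyte adhesion receptor, was 2.68-fold higher. Of 15 antigen processing and presentation genes, of 21 on the array, 6 were at least 2-fold higher and none lower, with a median of 0.87. SLA-3 had 1230 at day 20 and 118 at day 10, or 10.4-fold higher, and SLA-2 had 2762 at day 20 and 727 at day 10. These class I histocompatibility genes are near-identical and highly variable between pigs, so their probe sets may share transcripts or differ between animals. The proteasome activator subunits PSME2 and PSME1 were 4.06-fold and 2.27-fold higher. Of 15 interferon response genes, of 20 on the array, IRF9 was higher and IFIT3 lower, with a median of -0.15. That is 6.67% of the list each way, near the 6.65% higher and 7.04% lower over all genes.

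Of 21 immediate early genes compared, of 22 on the array, 6 (28.6%) were at least 2-fold higher and 1 (4.76%) was lower. Their median was 0.68, and over all genes 6.65% were higher and 7.04% lower. FOSL2, an AP-1 subunit, had 686 at day 20 and 143 at day 10, or 4.80-fold higher, the nuclear receptor NR4A2 had 297 at day 20 and 62.8 at day 10, and IER3 had 2167 at day 20 and 495 at day 10. SGK1, a glucocorticoid-regulated kinase, was 2.63-fold lower. Of 21 lysosome and autophagy genes, all those on the array, 4 (19.0%) were at least 2-fold higher and 1 (4.76%) was lower, with a median of 0.48. The cathepsins CTSZ and CTSH were 3.28-fold and 3.21-fold higher, and NPC1, which exports cholesterol from lysosomes, was 2.41-fold lower, with 259 at day 20 and 624 at day 10.

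In each of the BMP and TGF-beta, WNT and insulin-like growth factor lists 2 genes were past 2-fold, where 6.65% of all genes were higher and 7.04% lower. Of 15 BMP and TGF-beta genes compared, of 17 on the array, 2 were lower and none higher, with a median of -0.26. These were the BMP target ID1, with 963 at day 20 and 2106 at day 10, and BMP7, with 28.6 at day 20 and 97.0 at day 10, at least 2.69-fold lower. Of 7 WNT genes, of 8 on the array, 2 were higher and none lower, with a median of 0.11. DKK3, a secreted relative of the dickkopf antagonists, had 5314 at day 20 and 1015 at day 10, or 5.23-fold higher, and SFRP1, a secreted WNT antagonist, was 2.02-fold higher. Of 9 genes of the insulin-like growth factor axis, of 11 on the array, 2 were higher and none lower, with a median of 0.09. IGFBP5 had 497 at day 20 and 73.6 at day 10, or 6.75-fold higher, and IGFBP2 was at least 2.27-fold higher. Of 15 integrins and adhesion genes, of 18 on the array, 2 were higher and 2 lower, with a median of 0.08. Tissue factor, F3, had 6099 at day 20 and 1917 at day 10, and the adhesion molecule NCAM1, which marks condensing mesenchyme, had 176 at day 20 and 488 at day 10. The other NCAM1 probe sets were also lower but within 2-fold, with log2 ratios of -0.28, -0.95 and -0.51.

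Housekeeping groups shifted little. None of 45 cytosolic ribosomal proteins, of 46 on the array, and none of 29 proteasome subunits was past 2-fold, with medians of 0.32 and -0.18; median centring put 1 ribosomal protein past 2-fold. The ribosomal median lay near the 0.28 of the hybridisation controls, and the part of array scale in it was not tested. Of 26 respiratory chain genes 1 was lower and none higher (median -0.02), and of 13 heat shock proteins the co-chaperone HSPH1 was 2.57-fold lower and none higher (median 0.02). The lower genes made 3.85% of the respiratory chain list and 7.69% of the heat shock list, against 7.04% over all genes. Of 24 redox and metal buffering genes, of 27 on the array, the ferritin light chain FTL and the mitochondrial dismutase SOD2 were 2.06-fold and 2.03-fold higher (median 0.16). Of 12 genes of amino acid and endoplasmic reticulum stress only VLDLR, a lipoprotein receptor, was past 2-fold, at 2.86-fold higher (median 0.47). Higher genes made 8.33% of each of these last lists, near the 6.65% over all genes.

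**Figure D3:**
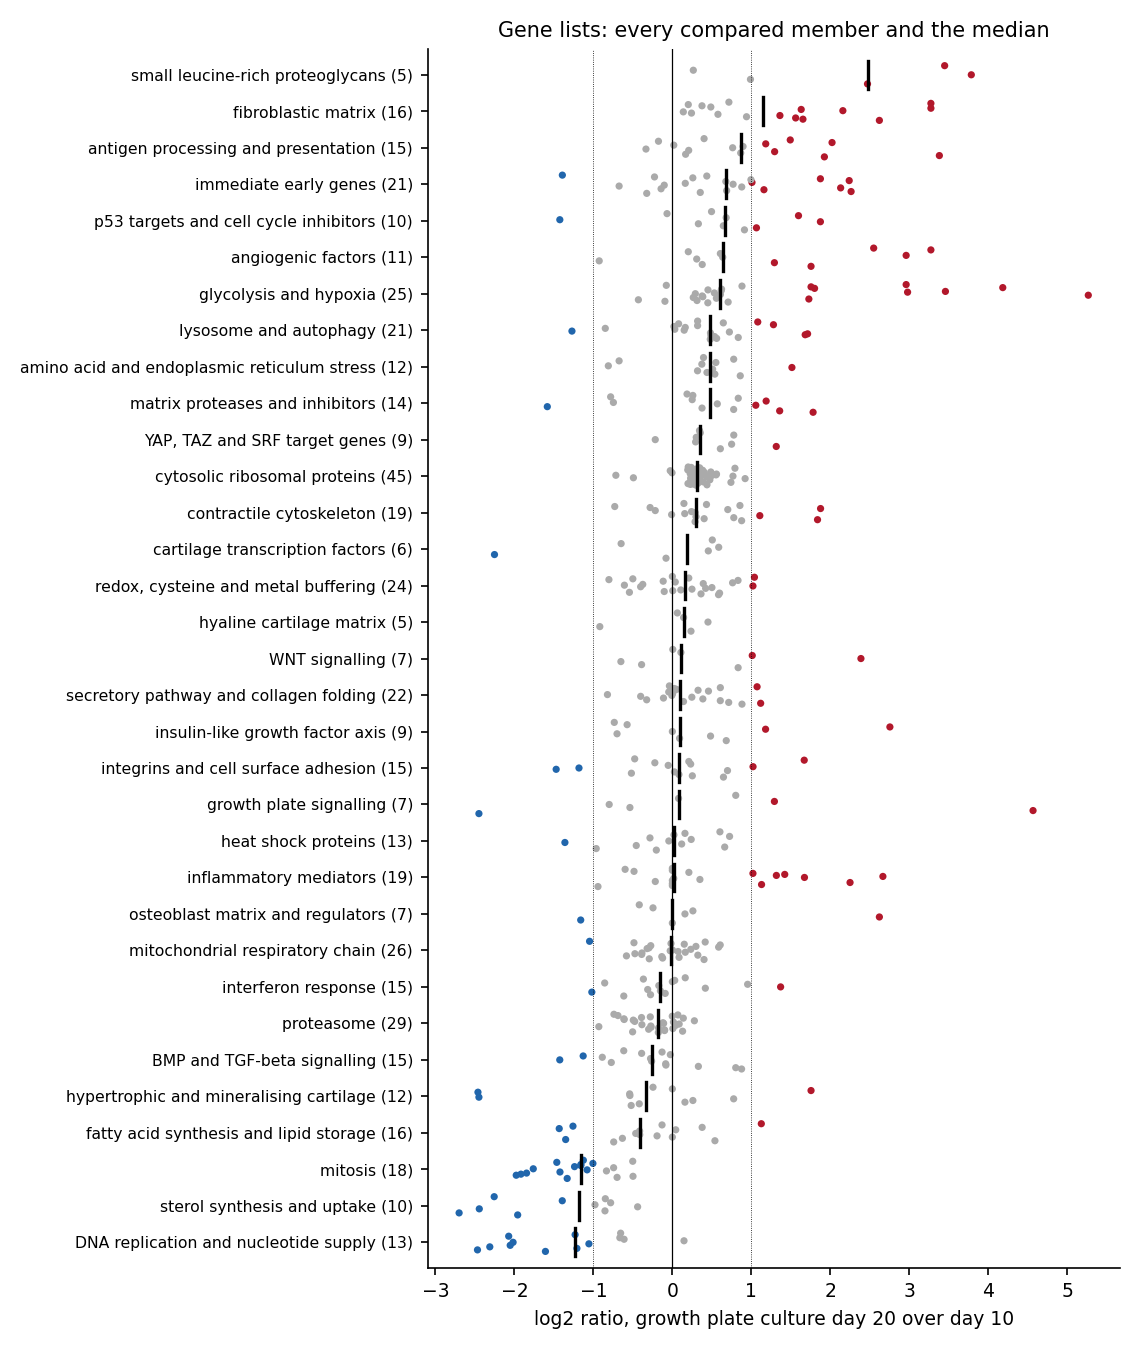
Log2 ratio of growth plate cultures, day 20 over day 10, for every compared member of the 33 pathway lists (number of members in brackets), with the list median as a black bar and dotted lines at 2-fold; red members are at least 2-fold higher at day 20 and blue at least 2-fold lower. Medians run from 2.47 for small leucine-rich proteoglycans to -1.23 for DNA replication.

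Several of the largest differences lay outside the lists. NRN1, neuritin, a surface protein known from neurons, had 1714 at day 20 and 75.1 at day 10, or 22.8-fold higher. The chemokine CXCL14 had 4873 at day 20 and 253 at day 10, or 19.3-fold higher, and CYP26A1, which degrades retinoic acid, had 2792 at day 20 and 158 at day 10, or 17.7-fold higher. TMEM158, a membrane protein induced by Ras, was 11.3-fold higher, the carbonic anhydrase CA3 10.3-fold and TMEM100 9.76-fold. Among genes under the floor at day 10, PHEROC was at least 30.9-fold higher, with 1117 at day 20 and 21.7 at day 10. The arginase ARG1 had 957 at day 20 and 14.1 at day 10, at least 26.5-fold, and the ferritin receptor SCARA5 had 893 at day 20 and 30.4 at day 10, at least 24.7-fold. At day 20 CXCL14, LUM, ASPN, TMEM158, NRN1 and VCAN were also above their native signals of 89.0, 956, 541, 115, 148 and 84.8.

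Lower genes had smaller folds. The carbonyl reductase CBR1 had 27.0 at day 20 and 532 at day 10, at least 14.7-fold lower. CYP1A1, a monooxygenase induced through the aryl hydrocarbon receptor, had 43.5 at day 20 and 367 at day 10, or 8.44-fold lower, and its native signal was under the floor. PDPN, podoplanin, a mucin-type surface glycoprotein, had 757 at day 20 and 5614 at day 10, or 7.42-fold lower, and its native signal was 4509. PDE6C, a phosphodiesterase subunit of cone photoreceptors, was 7.78-fold lower, NAP1L5 6.90-fold and PARM1 6.55-fold. The serine protease HTRA4, TMEM117 and the palmitoyltransferase ZDHHC14 were at the floor at day 20 and at least 8.57-fold, 6.83-fold and 5.24-fold lower. Of these 9 genes, CBR1, CYP1A1, PDPN, NAP1L5 and PARM1 among them, 8 had a native signal between those of the 2 culture days, and CYP1A1 had one below both.

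**Figure D4:**
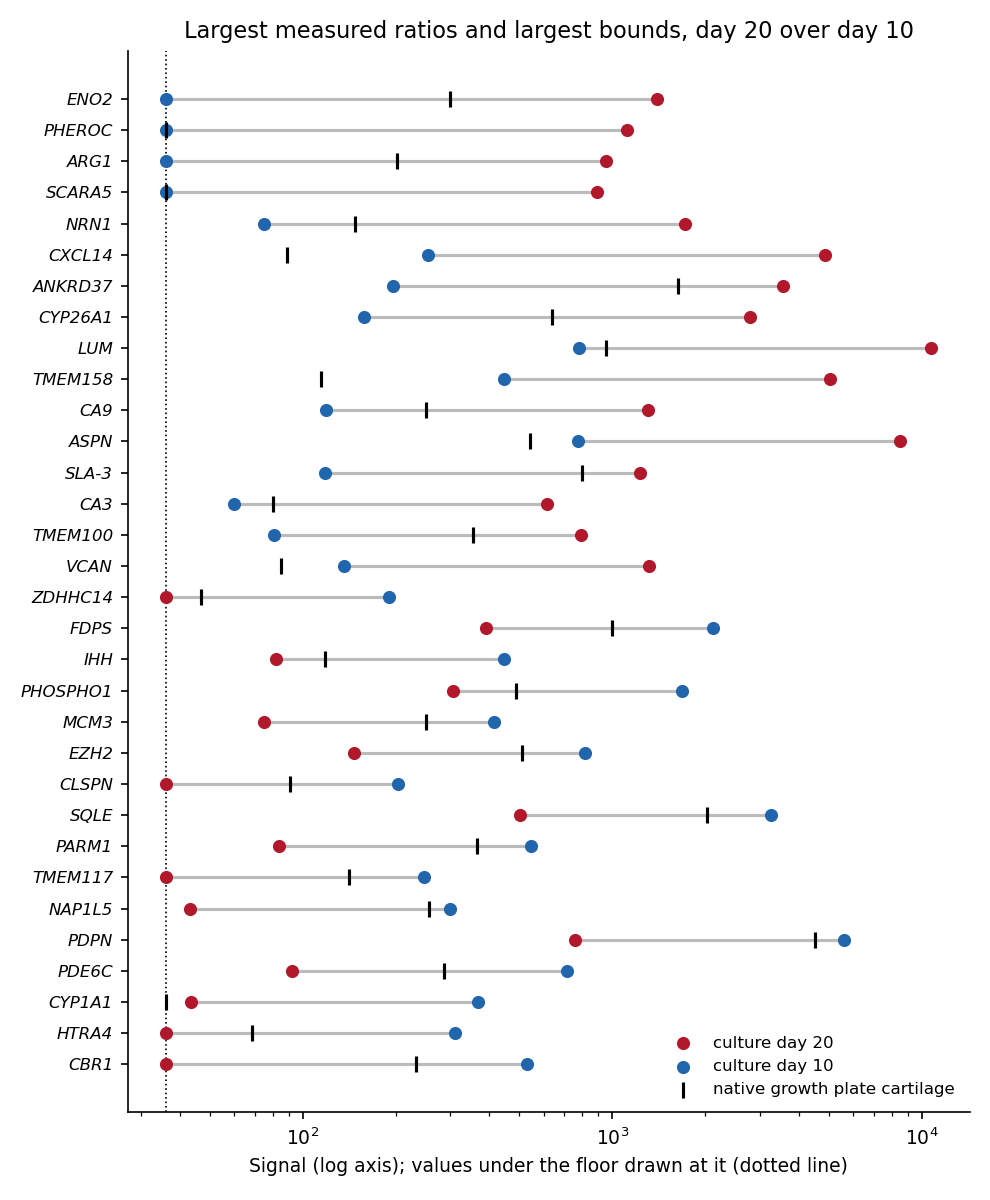
Signals (log axis) of 16 genes each way, the 12 with the largest ratio measured above the floor on both days and the 4 with the largest bound, at day 20 (red) and day 10 (blue) of growth plate culture, with native growth plate cartilage as a black tick and signals under the floor of 36.1 drawn at the dotted line. Higher genes run from ENO2, at least 38.5-fold, down to VCAN, and lower genes end with CBR1, at least 14.7-fold.

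The same interval in articular chondrocyte cultures, which shares no array with it, served to find which of these differences were seen in both cartilages. The articular pair had quality gaps in the same direction, though not all of the same size. Its ratio of 3′ to 5′ signals was 8.75 at day 20 and 4.58 at day 10 for ACTB, and 1.15 and 1.44 for GAPDH. The second GAPDH set had 5′ signals of 2041 at day 20 and 944 at day 10 in the articular pair. In the growth plate pair these were 12390 and 1701, a larger gap. The hybridisation controls of the articular pair had a median log2 ratio of 0.22. The part of a technical day difference common to both pairs in the overlap was not tested. Among the 84 genes past 4-fold that were higher in growth plate cultures at day 20, 50 (59.5%) were at least 2-fold higher in articular cultures too, where 5.75% of all genes were, and 1 was at least 2-fold lower. Of the 47 lower genes, 28 (59.6%) were at least 2-fold lower in articular cultures, where 5.56% of all genes were, and 2 were at least 2-fold higher. Read the other way, 32 (68.1%) of the 47 genes (0.84%) higher past 4-fold in articular cultures and 29 (85.3%) of the 34 (0.607%) lower ones were past 2-fold in the same direction in growth plate cultures. Medians of the 84 higher genes were 2.56 in growth plate against 1.32 in articular cultures. The 84 were chosen by their growth plate ratio, and that choice by itself favours a higher growth plate median. The articular arrays entered the floor, the filter and the choice of probe sets, but their ratio was not used to choose these genes. Across all genes the log2 ratios of the tissues had a Pearson r of 0.598 and a Spearman rho of 0.572, over 5598 genes that are not independent replicates.

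Cell division genes were lower at day 20 in both tissues, with list medians of -1.16 in growth plate against -1.58 in articular cultures for mitosis, and of -1.23 in growth plate against -1.68 in articular cultures for DNA replication. For sterol synthesis the medians were -1.19 in growth plate against -0.66 in articular cultures, and for glycolysis and hypoxia 0.61 in growth plate against 0.43 in articular cultures. ENO2 was at least 22.6-fold higher and PTHLH 7.92-fold higher at day 20 in articular cultures. Matrix lists had wider gaps, with medians of 2.47 in growth plate against 0.80 in articular cultures for small leucine-rich proteoglycans, and of 1.15 in growth plate against 0.27 in articular cultures for fibroblastic matrix. Of the 16 fibroblastic matrix genes, 4 were at least 2-fold higher at day 20 in articular cultures and none lower, against 8 higher in growth plate cultures. POSTN was 11.2-fold, VCAN 5.44-fold and COL3A1 3.02-fold higher in articular cultures. Others were within 2-fold in articular cultures, with THBS2 at 3137 at day 20 and 2617 at day 10, and COL1A2 at 838 at day 20 and 585 at day 10. There LUM had 2784 at day 20 and 1498 at day 10, and CXCL14 had 360 at day 20 and 490 at day 10. IHH in articular cultures had 48.0 at day 20 and 49.9 at day 10, PHOSPHO1 had 208 at day 20 and 309 at day 10, and PDPN had 3634 at day 20 and 5460 at day 10, all within 2-fold. Whether the day differences of the tissues differ could not be tested with 1 array per condition.

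**Figure D5:**
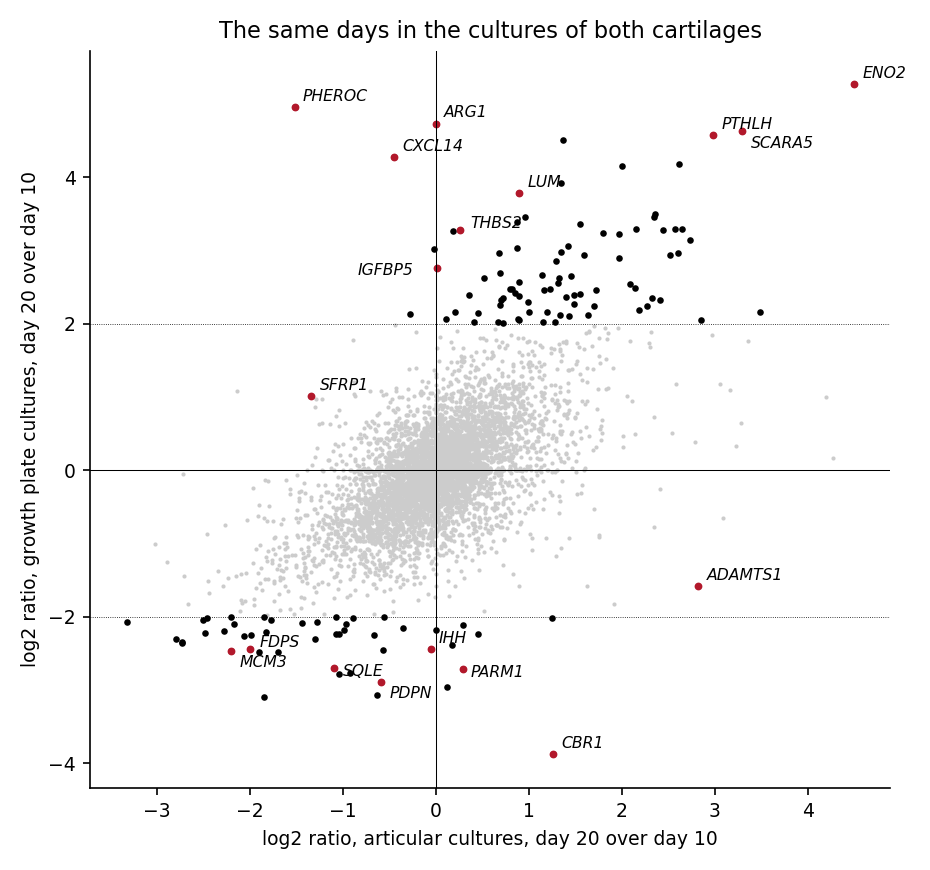
Log2 ratio of day 20 over day 10 in growth plate cultures (vertical) against articular cultures (horizontal) for 5598 genes, 1 array per condition; black points are at least 4-fold apart in growth plate cultures (dotted lines) and red points are named. Most black points lie on the same side of 0 in both tissues (79 of 84 higher and 39 of 47 lower), while PHEROC, SFRP1, ADAMTS1 and CBR1 lie on opposite sides.

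Only 11 genes were at least 2-fold apart in opposite directions in the tissues. Higher in growth plate and lower in articular cultures at day 20 were PHEROC, SFRP1 and the water channel AQP3, the last with 115 at day 20 and 54.4 at day 10 in growth plate cultures and 116 at day 20 and 513 at day 10 in articular cultures. The other 8 were lower in growth plate and higher in articular cultures, namely CBR1, ADAMTS1, ETNK2, PAMR1, CIB2, RIN3, NRSN1 and OCA2, of which CBR1, ETNK2 and CIB2 were at the floor at day 20 in growth plate. ADAMTS1 had 315 at day 20 and 944 at day 10 in growth plate cultures, and 371 at day 20 and 52.3 at day 10 in articular cultures. These genes were named because of these values.

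A test of day was possible only for the mean of both tissues. In limma's additive model of tissue and stage over the 6 arrays, with Benjamini-Hochberg adjustment, 0 of 5598 genes were called higher and 0 lower at an adjusted p under 0.05 and at least 2-fold. The unadjusted p was under 0.05 for 820 genes (14.6%). The model had 2 residual degrees of freedom and sets the day difference only against the departure of tissues from a common pattern. With both native arrays dropped from the model, limma called 112 genes (2%) higher and 125 (2.23%) lower at day 20, on 1 residual degree of freedom. Those calls held 41 of the 84 higher and 23 of the 47 lower genes past 4-fold in growth plate cultures, which entered the fit themselves. By list, it called 12 of 18 mitosis genes, 7 of 13 DNA replication genes and 3 of 10 sterol genes lower, and 7 of 25 glycolysis and hypoxia genes and 3 of 16 fibroblastic matrix genes higher. It called 0 of 5 small leucine-rich proteoglycans, 0 of 19 inflammatory mediators and 0 of 15 antigen processing and presentation genes. The fit holds both growth plate culture arrays, and the lists were chosen with earlier results known. Its calls by list are therefore not separate support for the list differences above.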

How the data were processed

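Per the labels, RNA of native and cultured porcine chondrocytes was hybridised to Affymetrix arrays, and the authors deposited 1 linear signal intensity per probe set and array, from GCOS 1.4 software (per the submitters' processing notes). Its scaling target is not given in the sources used here. With the top and bottom 2% left out, the arrays' mean signals lay between 400.09 and 400.11, so the intensities were not normalized again. From 24123 probe sets, 124 controls were removed. The floor of 36.1, the 40th percentile, was applied and log2 taken. The platform annotation gave 10069 probe sets 1 symbol, 198 several and 13732 none, and only the first were used, with 9961 symbols updated through RefSeq. Each of 6765 genes was represented by its probe set with the highest mean log2 value across arrays, and 5598 genes that exceeded the floor on at least 2 arrays were compared.

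Ratios of single arrays were computed with Python 3.11.15 and pandas 2.3.3. The test of day over both tissues used limma 3.58.1 (R 4.3.3, prior variance with an intensity trend) and was tested on simulated data. Where nothing says that arrays came from separate animals, its p-values measure only the spread between these arrays. Genes were named by rule: 12 each way of largest measured ratio, 4 each way of largest bound, up to 4 members per list of largest change, and the cartilage genes IHH, COL10A1, MMP13, COL2A1, COL1A2, ACAN and SOX9. Other list members were named after their values were seen. The comparison, the 33 pathway lists and the 10 marker lists were chosen with earlier results of these data known, and lists are described by counts and medians without a test. The number of arrays limits the precision. No sequence is given for these probe sets. Alternatives were quantile normalization, median centring, other floors, a pseudocount of 32, other filters, other use of probe sets, other size rules, other models and leaving out each array.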

Additional observations from a re-analysis of the deposited data

Results flagged for a closer look

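For 11 genes the day difference was at least 2-fold in opposite directions in the tissues; each difference between tissues comes from 4 single arrays and was not tested. On the log2 scale, the day 20 minus day 10 difference of growth plate cultures minus that of articular cultures was 6.47 for PHEROC, 3.22 for AQP3, 2.35 for SFRP1, -2.12 for OCA2, -2.41 for NRSN1, -2.46 for RIN3, -3.21 for CIB2, -3.26 for PAMR1, -3.75 for ETNK2, -4.41 for ADAMTS1 and -5.14 for CBR1. PHEROC had 1117 at day 20 and 21.7 at day 10 in growth plate cultures, and 89.3 at day 20 and 256 at day 10 in articular cultures. CBR1 had 27.0 at day 20 and 532 at day 10 in growth plate cultures, and 438 at day 20 and 183 at day 10 in articular cultures, each gene with 1 probe set. For both, an array at the floor makes the growth plate part a bound.

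A signal also lay in probe sets that no symbol names. Of 7919 such probe sets above the floor on at least 2 arrays, 156 were at least 4-fold apart in growth plate cultures, 90 of them higher at day 20 (1.14%) and 66 lower (0.833%). In articular cultures 50 of the 90 and 37 of the 66 were past 2-fold on the same side, where 5.34% of the 7919 were at least 2-fold higher at day 20 and 5.97% lower.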

How the results depend on the processing

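Counts of genes past 4-fold moved with the floor. With the floor at the 60th percentile 46 genes were higher and 21 lower at day 20, with a pseudocount in place of the floor 24 were lower, and over the alternatives that kept the 4-fold rule the higher genes numbered 46 to 105 and the lower ones 21 to 66. At 2-fold there were 372 higher and 394 lower genes, and at 8-fold 28 higher and 3 lower. Recomputed list medians moved by less than 1.5-fold in 347 cases and by more in 6, and ratios of named genes by less in 852 cases and by more in 60, with no gene or list past 2-fold turned in direction. With the mean of all probe sets of a gene, 2-fold counts that moved by over 1.5 times and by more than 1 gene were 5 lower DNA replication genes (9 otherwise), 3 higher angiogenic factors (5) and 0 lower integrins and adhesion genes (2), and growth plate signalling had 1 higher and 2 lower genes (2 and 1). The limma count of 0 each way became 112 higher and 125 lower when only the 4 cultured arrays were fitted, and leaving out 1 array at a time gave 0 to 121 higher and 0 to 130 lower, the calls coming only without native growth plate (121 and 130) or without native articular cartilage (106 and 118). Once 1 native array is left out, the other is alone at its stage and the model fits it exactly. The residual then comes from the 4 cultured arrays, so both of these fits are not separate from the fit to those 4. No paired analysis was possible because each condition has 1 array and the labels give no replicate numbers. Signal near the floor limits the smallest ratios that can be measured.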

Other observations

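These groups were chosen after their values were seen, and their counts carry no test. Of 11 serine and arginine rich splicing factors (SRSF symbols) on the array, 6 were at least 2-fold lower at day 20 in growth plate cultures and none higher, with a median log2 ratio of -1.05, and in articular cultures 8 were lower with a median of -1.499. The heterogeneous nuclear ribonucleoproteins, another family of RNA-binding splicing regulators, had none of 17 past 2-fold in growth plate cultures, with a median of -0.20. Of 58 mitochondrial ribosomal proteins 1 was at least 2-fold higher and 6 were lower, with a median of -0.31. Of 15 collagen chains 8 were at least 2-fold higher and none lower in growth plate cultures, with a median of 1.17. In articular cultures 6 of the 15 were at least 2-fold higher and none lower, with a median of 0.52.

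Retinoid handling genes were mostly higher at day 20, with 5 of 6 compared past 2-fold and a median of 1.504. Over all genes 6.65% were at least 2-fold higher. In articular cultures 3 of the 6 were at least 2-fold higher and none lower, with a median of 0.95. ALDH1A1, among the 5, had 87.0 at day 20 and 27.2 at day 10, at least 2.41-fold higher. Beside CYP26A1, the cellular retinoic acid binding protein CRABP2 had 181 at day 20 and 44.7 at day 10, and RARRES2, a retinoid-responsive chemoattractant, had 2022 at day 20 and 606 at day 10. RBP4, the retinol carrier, was within 2-fold at 4357 at day 20 and 6464 at day 10. Of 12 complement genes compared, of 18 on the array, 3 were at least 2-fold higher and none lower, with a median of 0.30. The proteases C1S and C1R and their inhibitor SERPING1 were 9.44-fold, 6.15-fold and 2.94-fold higher, and C3 was at the floor on both days. In articular cultures C1S, C1R and SERPING1 were 3.48-fold, 2.50-fold and 3.38-fold higher. Of 7 circadian clock genes, DBP, CRY2 and BHLHE40 were 3.85-fold, 3.83-fold and 2.72-fold higher and ARNTL was 2.15-fold lower. In articular cultures DBP, CRY2 and BHLHE40 were 3.88-fold, 3.52-fold and 2.23-fold higher and ARNTL was 1.42-fold lower. The hour of sampling is not given in the sources used here.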
